A study of Rattus norvegicus with 3 samples.

Results

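The genes described belong to 1 signalling pathway and are Il6st, Jak1, Jak2, Stat3, Stat5a, Stat5b, Cish, Socs1, Socs2 and Socs3. They were chosen by name, with earlier results of these data known. Every probe set that the platform annotation assigned to 1 of these symbols alone was read. This gave 17 probe sets for 10 genes out of 14218 genes on the array. The cells came from ovaries of female Sprague-Dawley rats, immature and aged 24 to 25 days, that had received pregnant mare's serum gonadotropin 48 h before. Their granulosa cells were cultured in Opti-MEM medium. All were infected with an adenovirus at 50 pfu per cell and harvested after a 6 h period that began 24 h after infection. The groups were Ad-NFIL3 with FSK/PMA, Ad-GFP with FSK/PMA, and Ad-GFP alone. Ad-NFIL3 carries the transcription factor NFIL3, Ad-GFP carries green fluorescent protein, and FSK/PMA is 10 uM forskolin with 20 nM phorbol 12-myristate 13-acetate, used in place of the ovulatory hormone signal. Each group had 1 Affymetrix array with RNA pooled from 3 experiments, and uninfected cells and Ad-NFIL3 without FSK/PMA were not analysed here. The spread between cultures therefore cannot be had, differences carry no p-value, and having so few arrays limits the precision of each.

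In the JAK-STAT pathway, a cytokine or hormone receptor activates Janus kinases (JAKs), which phosphorylate STAT proteins, and these enter the nucleus as transcription factors. Among the genes that STATs switch on are the suppressors of cytokine signalling, Cish and the Socs genes, whose proteins act back on the receptors and kinases. In the rat ovary the pathway is best known for prolactin, which signals through JAK2 and STAT5 to maintain the corpus luteum, and interleukin 6 family cytokines signal through gp130, JAK1 and STAT3.

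None of the measured members reached a 2-fold difference in either comparison. With FSK/PMA Stat3 was 1.49-fold and 1.72-fold higher by its 2 probe sets, and Socs2 was 1.69-fold lower. With NFIL3 the largest differences were a bound of at least 1.24-fold higher for Socs3, whose signals were near the limit of measurement, and 1.16-fold higher for Stat5a and for a probe set of Jak1. The counts were 0 of 8 measured members past 2-fold with FSK/PMA, where 18.8% of 9395 measured genes passed, and 0 of 9 with NFIL3, where 2.30% of 9397 passed. Elsewhere in the pathway, the prolactin receptor gene Prlr was 11.3-fold and 6.78-fold lower with FSK/PMA in 2 probe sets.

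A signal is the authors' MAS5 intensity of a probe set, on a linear scale. The median of all signals on the 3 arrays, 126, served as a floor to which lower signals were raised, and a probe set counted as measured where 1 or both arrays compared exceeded it. Of the 17 member probe sets 13 were above the floor on all 3 arrays, 3 were below it on all 3, and 1 was above it on 1 array. Differences are log2 ratios of floored signals, and a fold against an array at the floor is a bound. Technical spread was read from the 2 brightest measured probe sets of a gene, whose disagreement had a robust SD of 0.33 with FSK/PMA (2549 genes) and of 0.23 with NFIL3 (2500 genes), on the log2 scale and for a single difference. For genes whose 2 probe sets both had a mean signal of 4 times the floor or more, the robust SD was 0.27 and 0.18 (995 genes). These values hold no variation between cultures, and no technical error that moves both probe sets of a gene alike on an array. They are therefore only a part of the technical spread. Signals of different probe sets are not compared with each other, since their brightness differs for reasons other than the amount of RNA.

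The labels and the cells were checked first. Nfil3 had a signal of 5882 with Ad-NFIL3 and FSK/PMA, 1321 with Ad-GFP and FSK/PMA, and 564 with Ad-GFP alone, so it was highest on the array labelled Ad-NFIL3. All 5 granulosa markers on the array were above the floor on at least 1 array, among them Inha and Cyp11a1. Their summed signals were 37371, 50921 and 36949 on these arrays in that order. With FSK/PMA 3 of the 5 had a difference above 0 and 2 below, and with NFIL3 1 was above and 4 were below. Over all measured genes 56.7% and 45.2% were below 0. Of the leukocyte markers 4 of 6 were above the floor on some array, while Ptprc and Itgam were below it on all 3. The leukocyte sums were 2316, 2176 and 1189 on the same arrays in that order. Within them Cd14 alone gave 1562, 1488 and 606, while Cd68 gave 297, 254 and 187 and Cd74 gave 203, 254 and 246. The theca and stroma sums were 1132, 700.3 and 871, with Cyp17a1 below the floor throughout. The endothelial sums were 514, 476 and 385, with Pecam1 and Tek below the floor throughout. Of the oocyte markers only Zp2 was above the floor, and the oocyte sums were 430.1, 575 and 967. The red cell markers Hbb and Alas2 were above the floor on all 3 arrays, with sums of 15713, 18366 and 19937. The part of these cells in the differences below was not tested, and in pooled RNA fewer cells of a type and less RNA per cell cannot be told apart.

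Il6st encodes gp130, the receptor subunit shared by interleukin 6, leukemia inhibitory factor and related cytokines. Its probe set with the highest mean signal gave 2209 with Ad-NFIL3 and FSK/PMA, 2014 with Ad-GFP and FSK/PMA, and 2044 with Ad-GFP alone. The other 3 probe sets gave 1802, 1785 and 1690.1, then 702, 709 and 828, then 405, 378 and 316 on these arrays. The log2 differences of the 4 probe sets with FSK/PMA were -0.02, 0.08, -0.22 and 0.26, which is 2 on each side of 0. With NFIL3 they were 0.13, 0.01, -0.01 and 0.10. No direction for Il6st was shared by its probe sets in either comparison, and all 8 differences were smaller than the robust SD between probe sets of a gene.

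Jak1 encodes a kinase used by gp130 and by interferon receptors. Its signals were 6948 with Ad-NFIL3 and FSK/PMA, 6742 with Ad-GFP and FSK/PMA, and 6234 with Ad-GFP alone for 1 probe set, and 2786, 2397 and 2133 for the other. Both probe sets were in the same order on the 3 arrays, but the log2 differences were small, 0.11 and 0.17 with FSK/PMA and 0.04 and 0.22 with NFIL3. Of the NFIL3 values, 0.22 was above the 0.18 between bright probe sets and 0.04 was below it. Jak2 encodes the kinase of the prolactin and growth hormone receptors. Its single probe set gave 381, 349 and 359 on the arrays in that order, with log2 differences of -0.04 with FSK/PMA and 0.13 with NFIL3. The receptor subunit and both kinases thus lay within 1.20-fold in all measured differences, as the plot of signals by array shows.

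**Figure D1:**
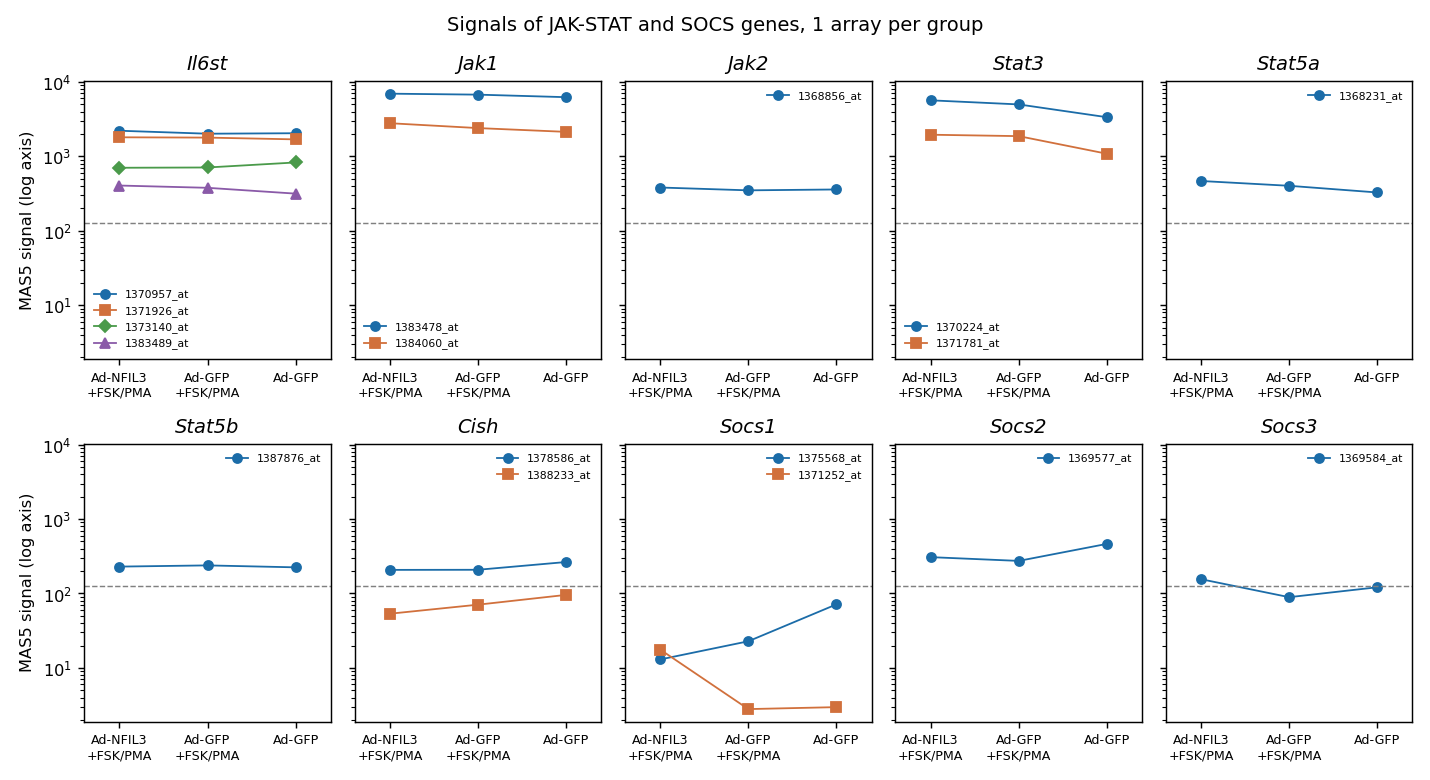
MAS5 signal (log axis) of every probe set of the 10 genes on the 3 arrays, Ad-NFIL3 with FSK/PMA, Ad-GFP with FSK/PMA, and Ad-GFP alone. Each panel is a gene, each line joins the values of 1 probe set, and the dashed line is the floor of 126. Stat3 is higher on both FSK/PMA arrays in both probe sets, Socs2 is lower on both, and Socs1 stays under the floor.

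Stat3, the transcription factor of gp130 cytokines and leptin, had the highest difference with FSK/PMA among the members, except with quantile normalisation and cyclic loess, where Stat5a stood higher (0.47 in each, against 0.45 and 0.41). Its signals were 5655 with Ad-NFIL3 and FSK/PMA, 4983 with Ad-GFP and FSK/PMA, and 3356 with Ad-GFP alone in 1 probe set, and 1952, 1868 and 1084 in the other. Both stimulated arrays were above the unstimulated array in both probe sets. The log2 differences with FSK/PMA were 0.57 and 0.79, each larger than the 0.33 between probe sets. Those with NFIL3 were 0.18 and 0.06, each smaller than the 0.23 of that comparison. Against the 0.18 of bright probe sets with NFIL3, the first was about equal and the second smaller. Over the alternative scalings, floors and probe set rules, the Stat3 difference with FSK/PMA ranged from 0.41 to 0.71.

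Stat5a and Stat5b are close relatives that carry the prolactin and growth hormone signal. Stat5a gave 467 with Ad-NFIL3 and FSK/PMA, 402 with Ad-GFP and FSK/PMA, and 327 with Ad-GFP alone. Its log2 differences were 0.30 with FSK/PMA and 0.21 with NFIL3, both under the spread between probe sets, but with median scaling, quantile normalisation and cyclic loess the FSK/PMA difference was 0.44, 0.47 and 0.47, above that spread. Stat5b gave 229.7, 238 and 225 on these arrays, with differences of 0.09 and -0.05. Each has 1 probe set on the array, so neither could be read a second time, and how far the probe sets tell these similar transcripts apart was not tested.

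Among the inhibitors, Socs2, a STAT5 target that limits growth hormone signalling, was the member with the lowest difference with FSK/PMA. Its single probe set gave 308 with Ad-NFIL3 and FSK/PMA, 274 with Ad-GFP and FSK/PMA, and 464 with Ad-GFP alone. Both stimulated arrays were below the unstimulated array. The log2 difference was -0.76 with FSK/PMA, -0.76 to -0.57 over the alternatives that measured it, and 0.17 with NFIL3. By the probe sets that stand for the genes, a 1.5-fold limit would count Socs2 and no other member with FSK/PMA, where 39.0% of measured genes passed that limit, and no member with NFIL3, where 11.1% passed.

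Cish is the inhibitor first known as a target of STAT5. It had signals of 208 with Ad-NFIL3 and FSK/PMA, 208 with Ad-GFP and FSK/PMA, and 265 with Ad-GFP alone, and its log2 differences were -0.35 with FSK/PMA and -0.005 with NFIL3. A second probe set gave 53.5, 70.7 and 95.7, below the floor on all 3 arrays. The FSK/PMA difference was about as large as the spread between probe sets and ranged from -0.35 to -0.14 over the alternatives. The 250 bases before the start of Cish are shown because they hold the densest set of STAT motifs among the members. They lie at chr8:116850719-116850968 on the plus strand of GRCr8, directly upstream of the annotated gene, and the sequence is from RefSeq, with capitals marking each match to the STAT motif TTCNNNGAA.
Cish: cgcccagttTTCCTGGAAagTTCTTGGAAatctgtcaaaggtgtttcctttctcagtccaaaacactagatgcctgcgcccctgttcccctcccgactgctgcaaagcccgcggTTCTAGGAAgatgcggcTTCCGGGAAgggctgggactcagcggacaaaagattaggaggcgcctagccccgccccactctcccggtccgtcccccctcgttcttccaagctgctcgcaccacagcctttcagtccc

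The 4 matches, TTCCTGGAA, TTCTTGGAA, TTCTAGGAA and TTCCGGGAA, form 2 pairs, starting at -241, -230, -136 and -119 from the gene's start. Of 33469 such rat windows, 7.67% held the STAT motif at least once, 7 windows held it 3 or more times, and 2 windows held it 4 or more times. Cish was chosen for this display after the matches were counted. Windows were at hand for 8 of the 10 members, and not for Socs2 and Jak1. Socs1 held 1 match, TTCAGGGAA, and the other members' windows held none. The same windows were searched on both strands for the cyclic AMP response element TGACGTCA, the AP-1 motif TGANTCA and the NFIL3 motif TTANGTAA, which occurred in 1.59%, 6.34% and 2.04% of all windows. No member window held the first or the second of these. The NFIL3 motif, which as searched allows any base at N, was matched in Il6st alone, as TTAAGTAA. However, the starts used for Il6st and Socs3 lie 11360 and 1207 bases inside the annotated genes. Those used for Stat3 and Stat5b lie 154 and 226 bases inside, so these windows are partly or wholly not upstream sequence. The motifs searched do not overlap in any member window, and a match describes letters only.

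Socs1 and Socs3 encode the inhibitors that bind JAKs, with Socs3 also binding gp130. Both probe sets of Socs1 were below the floor on every array, with signals of 13.0 with Ad-NFIL3 and FSK/PMA, 22.8 with Ad-GFP and FSK/PMA, and 71.4 with Ad-GFP alone in 1, and 17.6, 2.80 and 2.98 in the other. Socs1 was therefore not measured, and its probe sets were in no common order. Socs3 gave 156 with Ad-NFIL3 and FSK/PMA, 89.2 with Ad-GFP and FSK/PMA, and 121 with Ad-GFP alone. Only the Ad-NFIL3 array was above the floor, by little, so Socs3 was at least 1.24-fold higher with NFIL3 and not measured with FSK/PMA. With a floor at the 25th percentile the Socs3 log2 difference with NFIL3 was 0.80, with both signals then above the floor. With median scaling, quantile normalisation and cyclic loess it was 0.20, 0.21 and 0.21, against 0.305 in the main setting. Those 3 values were under the 0.23 between probe sets.

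**Figure D2:**
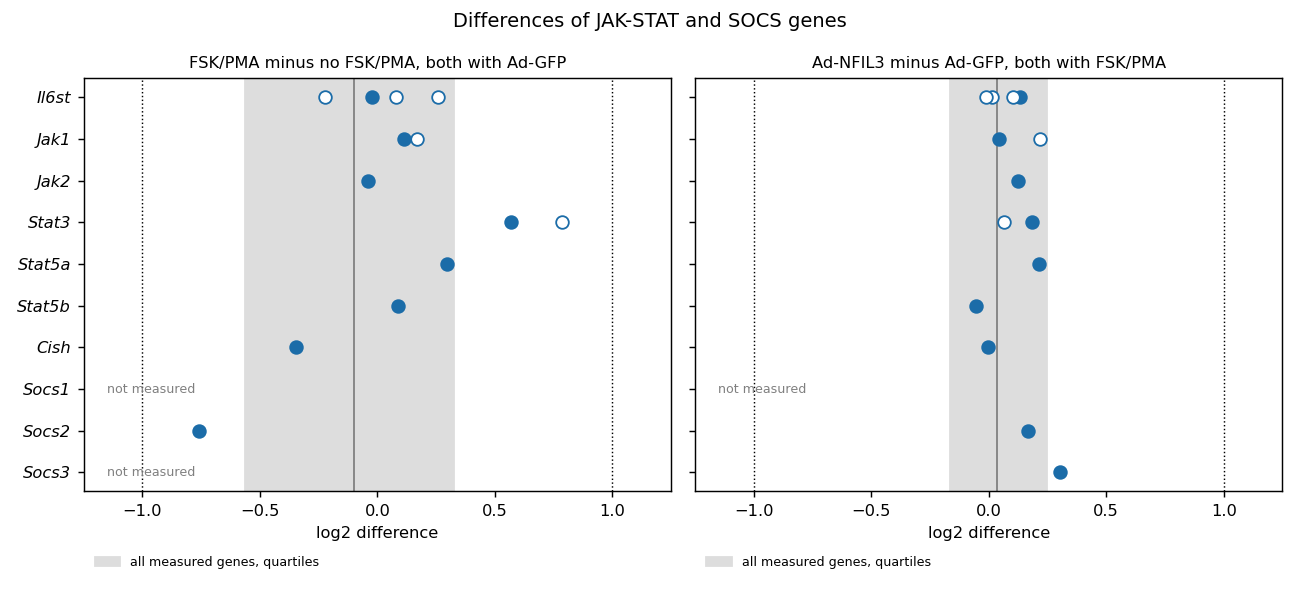
Log2 difference of each measured probe set of the 10 genes, with FSK/PMA on the left and with NFIL3 on the right. Filled points are the probe sets that stand for the gene, open points its other probe sets, the grey band the quartiles and the grey line the median of all measured genes, and the dotted lines 2-fold. No point reaches 2-fold. In the FSK/PMA comparison Stat3 lies above the band and Socs2 below it, and in the NFIL3 comparison the bound of Socs3 alone lies outside.

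As a group, the 8 members measured with FSK/PMA had a median log2 difference of 0.03, with 4 above 0 and 4 below, against a median of -0.10 and quartiles of -0.56 and 0.33 over all 9395 measured genes. With NFIL3 the 9 measured members had a median of 0.13, with 7 above 0, against a median of 0.03 and quartiles of -0.16 and 0.25 over all genes. The sign of the NFIL3 values depended on the scaling. When the arrays were set to a common median in place of a common trimmed mean, the median over all genes was -0.20 and that of the members -0.10, and Socs3 alone stayed above 0. The same scaling moved the median over all genes with FSK/PMA to 0.03 and that of the members to 0.17. The share of all genes at least 2-fold higher and lower with FSK/PMA was 7.43% and 11.4%, and 9.02% and 8.98% with the median scaling. With NFIL3 the shares were 1.34% and 0.958%, and 0.513% and 2.03% with that scaling, 0.984% and 1.20% with quantile normalisation, and 0.922% and 1.27% with cyclic loess. The 2 comparisons share the Ad-GFP with FSK/PMA array, so their differences are not independent.

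Other genes of the pathway, from lists of ligands, receptors, kinases, STATs, inhibitors and targets, differed more than the members with FSK/PMA. Of 47 measured, 10 were higher and 7 were lower by 2-fold or more (7.43% and 11.4% over all genes). These lists were chosen with earlier results of these data known. The list of STAT targets alone held 7 of the higher and 2 of the lower genes. Ligand genes were mostly under the floor. Of 7 gp130 ligands on the array 3 were measured, and Clcf1, a ligand of the ciliary neurotrophic factor receptor, had signals of 415 with Ad-NFIL3 and FSK/PMA, 292 with Ad-GFP and FSK/PMA, and 38.8 with Ad-GFP alone, at least 2.32-fold higher with FSK/PMA. Its log2 difference with NFIL3 was 0.51. Il6 itself was near the floor, with signals of 139, 149.6 and 69.7. Of 17 other ligands only Tslp, an epithelial cytokine gene, was measured, with 87.7, 149 and 96.8, at least 1.18-fold higher with FSK/PMA and at least 1.18-fold lower with NFIL3.

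Receptor genes had a median log2 difference of -0.59 with FSK/PMA over 14 measured. Of these, 1 was at least 2-fold higher and 3 at least 2-fold lower (7.43% and 11.4% over all genes). Prlr, the prolactin receptor that signals through JAK2 and STAT5, had signals of 762 with Ad-NFIL3 and FSK/PMA, 886 with Ad-GFP and FSK/PMA, and 10052 with Ad-GFP alone. A second probe set gave 231, 253 and 1717, which was 6.78-fold lower with FSK/PMA, and another lay close to the floor on all 3 arrays. The log2 difference of Prlr was -3.50, and -2.09 as the mean of its probe sets. Both FSK/PMA arrays were far below the unstimulated array in these 2 probe sets, and the log2 differences with NFIL3 were -0.22 and -0.13.

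Ifnar2, a subunit of the type I interferon receptor, gave 335, 332 and 907 on the arrays in the order used above, 2.73-fold lower with FSK/PMA, and its second probe set was 1.87-fold lower. Il10rb, a subunit of the interleukin 10 receptor, gave 497, 316 and 788, 2.49-fold lower with FSK/PMA, and its log2 difference with NFIL3 was 0.65. Il4r, the interleukin 4 receptor, was the 1 receptor gene past 2-fold in the other direction, with 829.6 with Ad-NFIL3 and FSK/PMA, 947 with Ad-GFP and FSK/PMA, and 412 with Ad-GFP alone, 2.30-fold higher with FSK/PMA. The receptor genes past 2-fold with FSK/PMA thus serve different ligands, and 10 of the 14 had a difference below 0, against 56.7% of all measured genes.

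With NFIL3 the only pathway gene past 2-fold of 48 measured was Ghr, the growth hormone receptor, where 2.30% of all measured genes passed. It gave 284 with Ad-NFIL3 and FSK/PMA, 124 with Ad-GFP and FSK/PMA, and 130.5 with Ad-GFP alone, at least 2.26-fold higher with NFIL3. A second probe set gave 148, 74.5 and 44.6, at least 1.17-fold higher with NFIL3. The Ad-NFIL3 array was the highest in both, but the values are close to the floor, and Ghr did not pass 2-fold with the median scaling, cyclic loess, the floor at the 75th percentile or the mean of probe sets. Dcn, a stroma marker, was also higher with NFIL3, with 481 with Ad-NFIL3 and FSK/PMA, 196 with Ad-GFP and FSK/PMA, and 201 with Ad-GFP alone. Col3a1, another stroma marker, differed by 0.05 on the log2 scale, and Pdgfra was at least 1.18-fold higher from signals near the floor or below it. All 3 measured theca and stroma markers thus had a difference above 0 with NFIL3, where 45.2% of all measured genes were below 0. Only Dcn, at 1.29, was well above the 0.23 between probe sets, since the bound of Pdgfra, 0.24, was about equal to it. The sign of small NFIL3 differences depended on the scaling, and these markers were not read under other scalings. The part of stroma cells in the Ghr difference was not tested.

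The other kinase and STAT genes had differences below 0 with FSK/PMA in 4 of 4 measured (56.7% over all genes), Jak3 and Stat6 as bounds near the floor. The median log2 difference of this list was -0.59, and 1 gene was past 2-fold (18.8% over all genes). Stat2, a partner of type I interferon signals, gave 253 with Ad-NFIL3 and FSK/PMA, 201 with Ad-GFP and FSK/PMA, and 469 with Ad-GFP alone. It was 2.33-fold lower with FSK/PMA, and 1.82-fold lower by a second probe set. With NFIL3 the largest difference in this list was that of Stat6, the STAT of interleukin 4, at least 1.90-fold higher, with 239, 108 and 154.

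The remaining inhibitors and phosphatases had a median log2 difference of 0.01 with FSK/PMA over 11 measured. Pias3, an inhibitor of STAT3, gave 420.0 with Ad-NFIL3 and FSK/PMA, 337 with Ad-GFP and FSK/PMA, and 1231 with Ad-GFP alone, 3.65-fold lower with FSK/PMA. Ptpn1, a tyrosine phosphatase that acts on JAK2, gave 1022, 1108 and 485, 2.28-fold higher with FSK/PMA, and its second probe set was 1.84-fold higher. With NFIL3 Pias3 had the largest log2 difference, 0.32, among the probe sets that stand for the genes of this list, and dimmer probe sets of Pias4, Socs5 and Socs7 differed by -0.38, 0.36 and 0.37.

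Socs5, Socs6 and Socs7, the other suppressors measured, were named after their values were seen. Socs5 gave 2420.1 with Ad-NFIL3 and FSK/PMA, 2096 with Ad-GFP and FSK/PMA, and 1302 with Ad-GFP alone, and the log2 differences of its 2 probe sets with FSK/PMA were 0.69 and 0.74. Socs7 gave 674, 647 and 1248, with -0.95 and -0.80 in 2 probe sets, while another was below the floor. Socs6 differed by 0.49. The measured suppressor genes therefore differed in both directions with FSK/PMA, all within 2-fold, and with NFIL3 the same probe sets differed by -0.10 to 0.37.

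**Figure D3:**
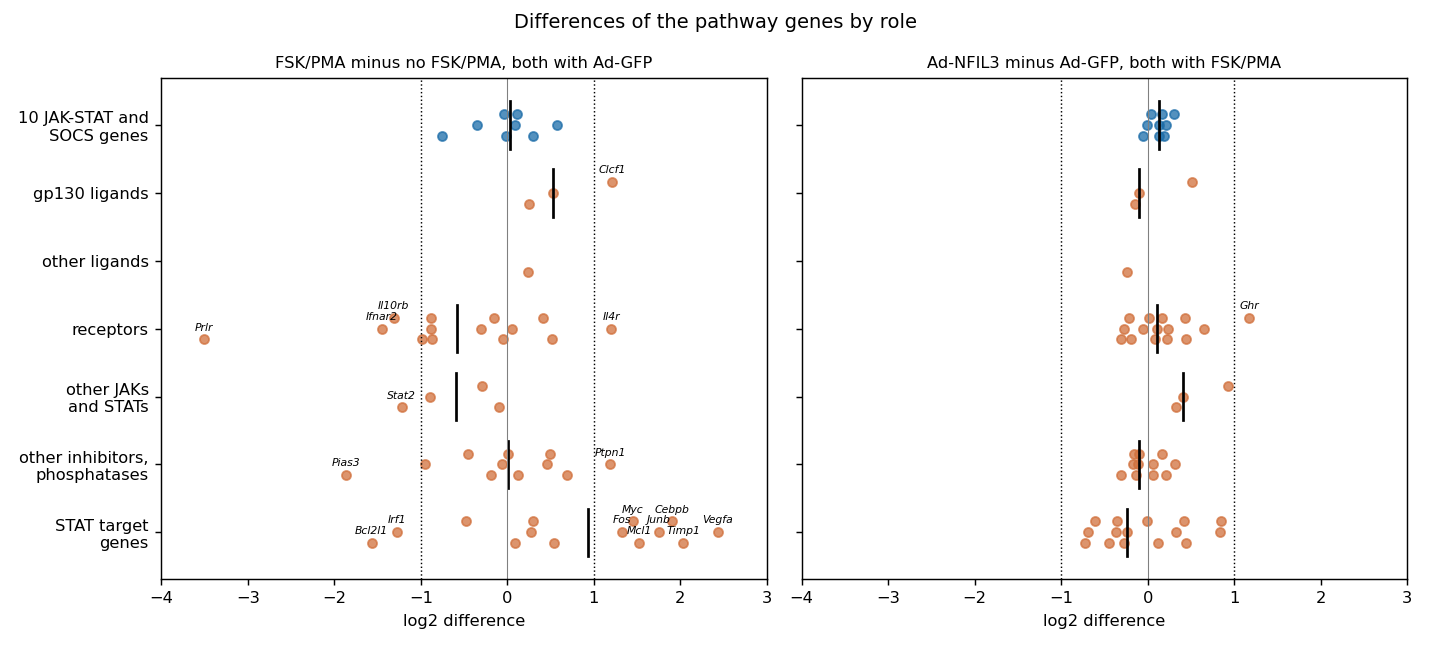
Log2 difference of each measured pathway gene by role, with FSK/PMA on the left and with NFIL3 on the right. Each point is a gene, read from its probe set with the highest mean signal, black bars are medians of groups of 3 or more genes, dotted lines mark 2-fold, and genes past 2-fold are named. The measured JAK-STAT and SOCS genes, 8 with FSK/PMA and 9 with NFIL3, lie inside the lines, while receptors and target genes reach -3.50 and 2.43 with FSK/PMA.

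Genes known as STAT targets in various tissues had a median log2 difference of 0.93 with FSK/PMA over 14 measured. Of these, 7 were at least 2-fold higher and 2 at least 2-fold lower (7.43% and 11.4% over all genes). The list was chosen with earlier results of these data known. Many of its genes have other known regulators, cyclic AMP and AP-1 among these. Vegfa, an angiogenic factor, gave 1801 with Ad-NFIL3 and FSK/PMA, 2969.8 with Ad-GFP and FSK/PMA, and 549.8 with Ad-GFP alone, 5.40-fold higher with FSK/PMA. Timp1, a metalloproteinase inhibitor, was 4.10-fold higher, the transcription factor gene Cebpb 3.73-fold higher and the AP-1 gene Junb 3.36-fold higher. The lower pair, named after the values were seen, were Bcl2l1, a survival gene, at 2.97-fold lower by the 1 of its 3 probe sets that was above the floor (a log2 difference of -1.57, and -0.52 as the mean of its probe sets), and Irf1, an interferon target, at 2.42-fold lower. With NFIL3 the list had a median of -0.24 and no gene past 2-fold. Among the probe sets that stand for the genes, the largest difference was that of Bcl2l1, 1.80-fold higher. Its signals were 267 with Ad-NFIL3 and FSK/PMA, 148 with Ad-GFP and FSK/PMA, which is near the floor, and 439 with Ad-GFP alone. The dimmer probe set of Vegfa was 1.91-fold lower with NFIL3, and the brighter 1.65-fold lower.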

How the data were processed

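Affymetrix Rat 230-2.0 arrays were hybridised with pooled total RNA, 1 array per group. The values deposited by the authors are MAS5 intensity signals on a linear scale, per the submitters' processing notes. No MAS5 version is stated in the sources at hand. The 2% trimmed mean of each array was 500.2, so the arrays had been scaled before deposit.

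Arrays were set to a common 2% trimmed mean, floored at the 50th percentile of all signals (126) and log2 transformed. A gene was read from its probe set with the highest mean signal. Probe sets were named by the platform annotation, with 20832 of 1 symbol, 436 of several and 9831 of none, and 20764 probe sets were matched by Entrez ID to RefSeq genes of GRCr8. Of 123 further list entries, markers included, 112 matched. Differences of 2-fold were counted without a test. Named from each list are up to 4 genes past 2-fold in a comparison, by size, or else the largest. Promoter windows were to be shown for members with the largest differences. Those of Stat3 and Socs3 overlap the annotated gene and are not printed. The members and lists were chosen with earlier results of these data known. Alternatives changed the scaling, floor, probe set rule and fold. Calculations used Python 3.11.15, pandas 2.3.3 and limma 3.58.1, and were tested on simulated data.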

Additional observations from a re-analysis of the deposited data

How the results depend on the processing

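The count of members past 2-fold was 0 in each direction and comparison under all alternatives except 2. Without a floor Socs1 was lower with FSK/PMA (1 member), from signals below the floor, and a 1.5-fold limit counted Socs2 (1 member). The members' NFIL3 median was -0.10 with median scaling. Among other pathway genes with FSK/PMA, the floor at the 75th percentile gave 3 lower, no floor gave 19 higher and 15 lower, and the 1.5-fold limit gave 13 lower. With NFIL3, 0 were higher with median scaling, cyclic loess, the 75th percentile floor or the mean of probe sets. The 25th percentile floor gave 3 higher and 1 lower, no floor gave 10 and 9, and the 1.5-fold limit gave 5 and 3. Over all genes, the counts higher and lower with FSK/PMA were 698 and 1072 (7.43% and 11.4%). They were 420 and 402 (6.96% and 6.66%) with the 75th percentile floor and 1777 and 2258 (12.5% and 15.9%) with no floor. At 1.5-fold they were 1403 and 2259 (14.9% and 24.0%). With NFIL3 the counts were 126 and 90 (1.34% and 0.958%), and 48 and 190 (0.513% and 2.03%) with median scaling. They were 545 and 236 (4.37% and 1.89%) with the 25th percentile floor and 36 and 48 (0.652% and 0.869%) with the 75th. With no floor they were 1507 and 910 (10.6% and 6.40%), and at 1.5-fold 640 and 399 (6.81% and 4.25%). Shares are of the genes measured in each setting, a number that changes with the floor. The cause of these shifts was not tested beyond what each setting changes. No paired analysis was possible because each group had 1 array.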
